A study of Mus musculus with 69 samples.

Results

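The genes described here are Vegfa, the receptors through which its protein acts, and markers of the endothelial cells that carry those receptors, measured in livers of old mice fed rapamycin, a drug that inhibits mTOR signalling. The members were chosen by name, with earlier results of these data known but no threshold on their values: Vegfa, Flt1, Kdr, Nrp1, Tek, Lyve1, Stab1, Stab2, Pecam1 and Cdh5. The arrays held 15 probes for these 10 genes, of 25697 probes and 16593 named genes in all. A probe was tested if it was detected (detection p under 0.05) on at least 13 arrays, which kept 13 of the 15 member probes and 12442 probes in all. Vegfa probe 3 and Flt1 probe 2 were detected on 0 of 69 arrays and were left out of every test.

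One liver sample from each of 69 C57BL6/J mice was hybridized to its own bead array, at an age of 25 months. Encapsulated rapamycin was mixed into the chow (14 ppm), and feeding began at an age of 4 months and lasted 21 months. Control mice ate chow with the empty capsule material, Eudragit. There were 21 Rapa females and 16 control females, and 13 Rapa males (6 titled Rapa-2 and 7 titled Rapa-1) and 19 control males. No transgene or deletion is named for any group. The study drew the division into Rapa-2 and Rapa-1 from expression on these same arrays, so p-values that involve it are descriptive. Every Rapa-1 male also bears a lower animal number than every Rapa-2 male, so number order and title group cannot be told apart. Likewise, in each sex every Rapa mouse bears a lower number than every control mouse, so number order and diet cannot be told apart either. Whole liver was measured, in which fewer cells of a type and less RNA per cell cannot be told apart. On the log2 scale the 6 measured hepatocyte markers averaged 12.315 in Rapa females and 12.551 in control females. Among males they averaged 12.293 (Rapa-2), 12.631 (Rapa-1) and 12.541 (control).

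VEGF-A, the product of Vegfa, is a secreted growth factor that hepatocytes are known to make and that endothelial cells need to survive, divide and stay permeable. It binds VEGFR-1 (Flt1), which holds ligand with little signalling, and VEGFR-2 (Kdr), the main signalling receptor, with neuropilin-1 (Nrp1) as co-receptor, while Tie2 (Tek) is the receptor of the angiopoietins. The sinusoids of the liver are lined by a specialised endothelium with pores, marked by the hyaluronan receptor Lyve1 and the scavenger receptors stabilin-1 and stabilin-2 (Stab1, Stab2), and Pecam1 and Cdh5 (VE-cadherin) sit at the junctions between endothelial cells in general.

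The array annotation pairs Vegfa probe 1 with one RefSeq transcript of the gene and probes 2 and 3 with another. RefSeq (build GRCm38.p6) gives Vegfa on chromosome 17, minus strand, and its promoter table holds 2 windows for the gene, each from 250 bases before a transcript start to 50 bases after it. Both are printed, followed by the window of Flt1, the receptor that fell beside Vegfa probe 1. Which of the 2 starts the transcript of each Vegfa probe uses was not worked out. Capitals mark the hypoxia response core (ACGTG or GCGTG) and the ETS core (AGGAAG or CGGAAG) on either strand.
Vegfa outer start, chr17:46032328-46032627, minus strand: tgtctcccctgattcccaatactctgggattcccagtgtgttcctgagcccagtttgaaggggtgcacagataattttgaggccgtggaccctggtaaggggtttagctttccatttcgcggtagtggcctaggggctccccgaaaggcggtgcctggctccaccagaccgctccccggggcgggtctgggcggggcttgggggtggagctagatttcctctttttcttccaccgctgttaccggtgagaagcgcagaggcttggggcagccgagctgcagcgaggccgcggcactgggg
Vegfa inner start, chr17:46025114-46025413, minus strand: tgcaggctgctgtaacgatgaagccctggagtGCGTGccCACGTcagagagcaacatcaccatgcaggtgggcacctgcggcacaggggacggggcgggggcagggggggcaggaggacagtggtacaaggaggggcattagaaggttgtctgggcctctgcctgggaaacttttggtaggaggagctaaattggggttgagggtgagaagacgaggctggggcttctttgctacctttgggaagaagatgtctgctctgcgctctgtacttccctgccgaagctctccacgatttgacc
Flt1, chr5:147725962-147726261, minus strand: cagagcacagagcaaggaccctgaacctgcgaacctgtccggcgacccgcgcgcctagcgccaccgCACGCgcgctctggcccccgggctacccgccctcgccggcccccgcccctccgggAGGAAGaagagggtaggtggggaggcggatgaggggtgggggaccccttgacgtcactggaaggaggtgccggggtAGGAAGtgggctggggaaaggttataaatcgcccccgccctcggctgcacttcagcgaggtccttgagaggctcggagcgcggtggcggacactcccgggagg
The outer Vegfa window held neither core, the inner one held 2 hypoxia cores, and the Flt1 window held 1 hypoxia core and 2 ETS cores. The inner Vegfa window lies within the gene, which spans 46016993 to 46032377. Bases outside these windows were not searched, and whether any match takes part in control of its gene was not tested. Of 32851 promoter windows of this length, 43.8% held a hypoxia core and 46.5% an ETS core, so a match is common. Windows were found for 7 of the 10 genes. The position of each probe within its transcript was not used here.

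Raw array brightness differed between groups before scaling. The median raw signal averaged 102 in Rapa females and 104 in control females. Among males it averaged 89.0 (Rapa-2), 124 (Rapa-1) and 130 (control). The share of detected probes averaged 39.9% in Rapa females against 43.6% in control females. It was 42.1%, 42.5% and 43.8% in Rapa-2, Rapa-1 and control males. The values below are log2 signals after quantile normalization, and a probe passed a comparison with an adjusted p under 0.05 (limma, Benjamini-Hochberg over all 12442 tested probes) and a change of over 15%. Rapa-2 males, Rapa-1 males, all Rapa males and control females were each set against the same control males, so these comparisons are not independent of each other.

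Vegfa probe 1 was the member with the widest range. In Rapa females its lowest, median and highest log2 signals were 7.22, 7.65 and 8.69, against 8.30, 8.97 and 9.57 in control females. All 21 Rapa females lay below the control female mean, though the ranges overlapped. The difference was -1.28 ± 0.12 (SE), 0.411 of the control signal, with limma adjusted p = 3.43e-11. Background was not subtracted in this fit, so 0.411 is a ratio of signals. Under the alternatives the difference ran from -1.64 to -1.07. Among males the lowest, median and highest were 7.96, 8.64 and 8.82 (Rapa-2), 9.95, 10.22 and 10.58 (Rapa-1), and 9.79, 10.13 and 10.53 (control). No Rapa-2 male reached the lowest Rapa-1 or control male, whereas the Rapa-1 and control ranges lay almost on top of each other. Rapa-2 males were lower than control males by a log2 difference of -1.62 ± 0.10 (limma adjusted p = 3.53e-13) and lower than Rapa-1 males by -1.74 ± 0.14 (limma adjusted p = 1.59e-07). Rapa-1 males differed from control males by 0.11 ± 0.09 (limma adjusted p = 0.596).

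Taken over all 13 Rapa males the probe averaged 9.46 ± 0.94 against 10.15 ± 0.20 in control males (SD), a difference of -0.69 ± 0.21 (limma adjusted p = 0.0248). That mean describes few of the animals, since 8 of 13 lay below the control mean and 5 above it, and leaving out any 1 of the 6 Rapa-2 males ended the call (adjusted p up to 0.0562). Control females were also lower than control males, without overlap, by -1.15 ± 0.08 (limma adjusted p = 1.91e-14). From the highest group to the lowest, the means ran from Rapa-1 males (10.26) and control males (10.15), which did not differ beyond their spread, through control females (9.00) and Rapa-2 males (8.53), whose ranges overlapped, to Rapa females (7.72).

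Raw signals, which no scaling has touched, gave the same picture for this probe. The raw medians were 163 in Rapa females and 530 in control females. Among males they were 297 (Rapa-2), 1448 (Rapa-1) and 1511 (control).

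Vegfa probe 2 did not follow probe 1. In Rapa females its log2 signals ran 8.75, 8.87 and 9.20, against 8.02, 8.63 and 8.98 in control females (lowest, median, highest), a difference of 0.28 ± 0.06 (limma adjusted p = 0.000163) with all 21 Rapa females above the control mean. In Rapa-2 males it ran 8.36, 8.97 and 9.11, against 8.12, 8.41 and 8.60 in control males. It was higher in Rapa-2 males by 0.53 ± 0.08 than in control males (limma adjusted p = 1.05e-05), and 5 of 6 lay above the control mean. The exception, Rapa-2 male 4, held 8.36 where the next Rapa-2 male held 8.91. All Rapa males together were higher by 0.26 ± 0.08 (limma adjusted p = 0.0273) and control females were higher than control males by 0.25 ± 0.06 (limma adjusted p = 0.00117), while Rapa-1 males differed from control males by 0.03 ± 0.06 (limma adjusted p = 0.855). The call over all Rapa males was lost in 7 of 14 alternatives, and the difference was 0.05 (limma adjusted p = 0.882) when the raw array median entered the fit.

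Both tested Vegfa probes thus passed in opposite directions in 5 of 6 pairwise comparisons, and the calls over all Rapa males were lost under more alternatives than the other 4 pairs. The size and, in females, the sign of the probe 2 difference followed the scaling. Its raw medians were 362 in Rapa females and 409 in control females. Among males they were 409 (Rapa-2), 405 (Rapa-1) and 422 (control). In raw signal, then, no group set against control males was higher on probe 2, and Rapa-2 arrays were dimmer as a whole. Under the alternatives, the Rapa-2 difference from control males stayed at 0.46 or more. With arrays scaled to a common median, which moved the median of all tested probes by -0.20 in females, the female difference of probe 2 was -0.15 ± 0.08 (limma adjusted p = 0.118). Probe 1 stayed lower in Rapa females and Rapa-2 males under every alternative run. Vegfa probe 3 gave raw signals of 65.7 to 120 over all 69 arrays, within the background.

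**Figure D1:**
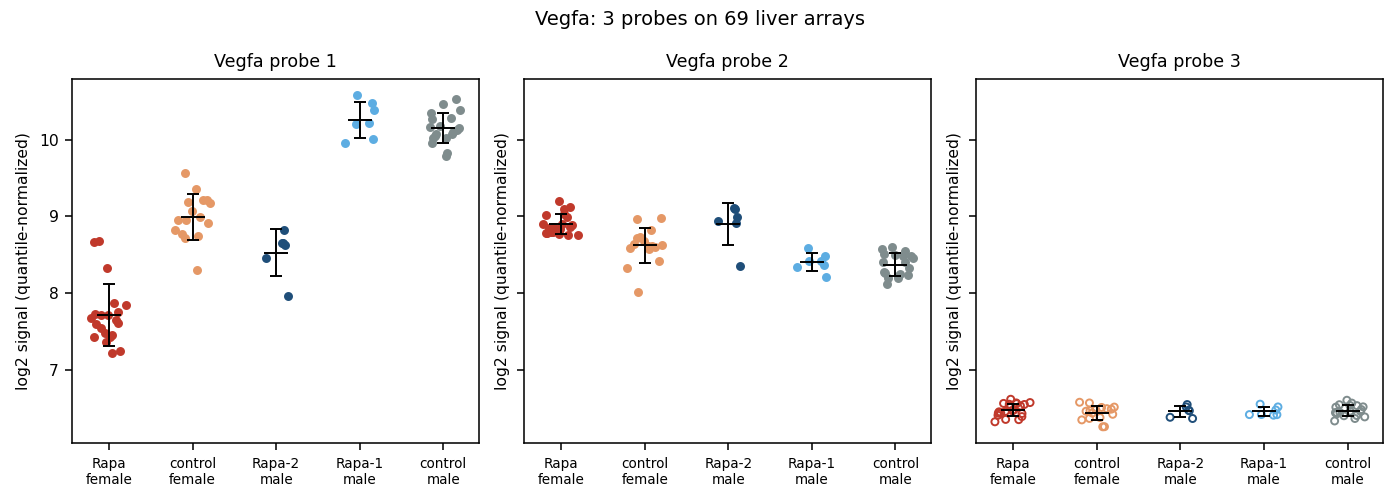
Quantile-normalized log2 signal of the 3 Vegfa probes, 1 point per array, in Rapa females (21), control females (16), Rapa-2 males (6), Rapa-1 males (7) and control males (19), with black bars for mean and SD and open points for arrays where the probe was not detected. Probe 1 is low in Rapa females and Rapa-2 males, probe 2 is slightly higher in both, and probe 3 is open throughout at about 6.46.

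Array by array, the deviations of Vegfa probes 1 and 2 from their group means had r = 0.17 over 69 arrays. The 2 Nrp1 probes had r = 0.94 and the 2 tested Pecam1 probes r = 0.40, so a pair of probes for one gene could agree closely on these arrays. These correlations are descriptions, and no test between probes was run.

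**Figure D2:**
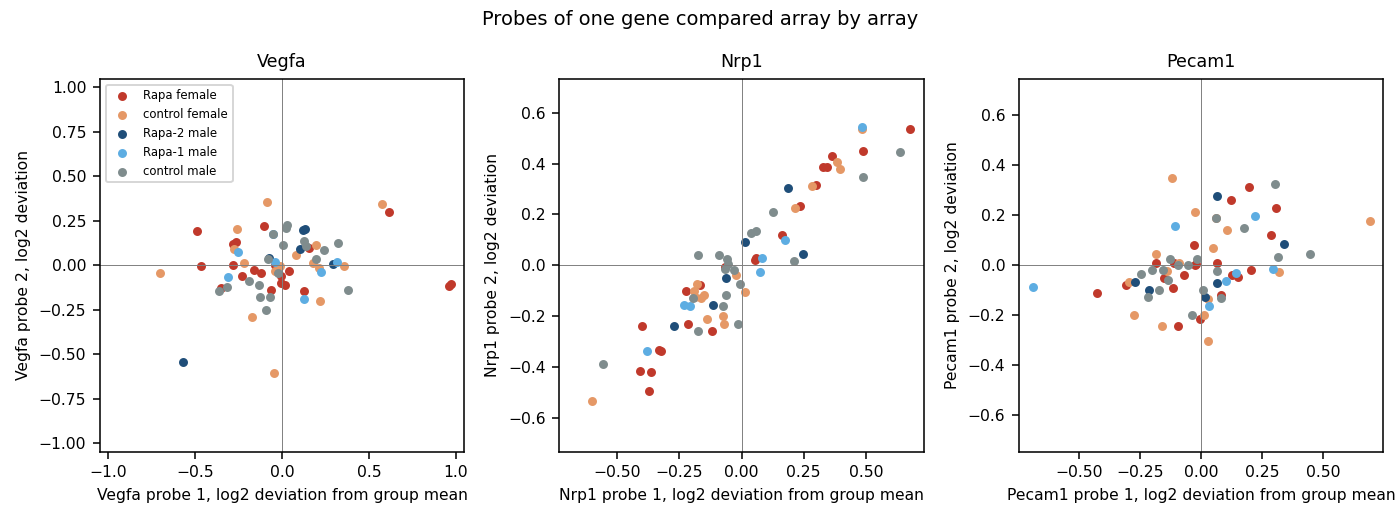
Deviation of each array from its group mean in log2 units, for both tested probes of Vegfa, Nrp1 and Pecam1, with points coloured by group (69 arrays). The Nrp1 points follow the diagonal (r = 0.94), the Pecam1 points do so loosely (r = 0.40) and the Vegfa points scatter (r = 0.17).

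Of the 13 member probes tested, 6 passed between Rapa and control females, where 38.4% of all tested probes passed. One was higher (20% of all probes) and 5 were lower (18.5% of all probes). The ranges of the 2 diets overlapped for all 13, beside 0.49% of all tested probes whose ranges did not. The median log2 difference of the members was -0.08, beside 0.03 over all tested probes.

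Flt1 was the receptor that fell most in Rapa females. Flt1 probe 1 ran 7.81, 8.07 and 8.87 in Rapa females, against 8.61, 8.86 and 10.01 in control females, with all 21 Rapa females below the control mean. The difference was -0.85 ± 0.10 (limma adjusted p = 7.33e-09). Among males it ran 7.93, 8.40 and 8.63 (Rapa-2), 8.26, 8.74 and 8.88 (Rapa-1), and 8.49, 8.76 and 9.12 (control). All 6 Rapa-2 males were below the control male mean, with overlap, and the difference was -0.45 ± 0.09 (limma adjusted p = 0.000194). All Rapa males together were lower by -0.26 ± 0.08 (limma adjusted p = 0.0243), a call that ended without Rapa-2 male 1, 3 or 4 and in 6 of 14 alternatives, and Rapa-1 males differed by -0.10 ± 0.08 (limma adjusted p = 0.59). Rapa-2 males were lower than Rapa-1 males by -0.35 ± 0.13 (limma adjusted p = 0.0414), which passed in 4 of the 13 fits that left out 1 array. Control females and control males differed by 0.18 ± 0.09 (limma adjusted p = 0.0949).

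Kdr was near the limit of detection and gave no firm level. It was detected on 0 of 21 Rapa females and 1 of 16 control females, and on 6 of 6 Rapa-2, 3 of 7 Rapa-1 and 11 of 19 control males. Its log2 signals lay between 6.43 and 7.13 over all groups. The measured signals of control females were lower than those of control males by -0.22 ± 0.04 (limma adjusted p = 6.91e-06), with nearly all control females not above background, so this gives no size for a difference in Kdr RNA. No diet comparison of Kdr passed, the differences being under 15%, and for females no fold is given because nearly all arrays of both diets were not above background.

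Nrp1 moved in opposite directions with the diet in the sexes, on both probes. Nrp1 probe 1 ran 9.68, 10.02 and 10.76 in Rapa females, against 9.73, 10.26 and 10.82 in control females, so the ranges nearly coincided while 15 of 21 Rapa females lay below the control mean. The differences were -0.25 ± 0.10 (limma adjusted p = 0.0331) for probe 1 and -0.30 ± 0.10 (limma adjusted p = 0.0107) for probe 2. In all Rapa males probe 1 ran 9.79, 10.07 and 10.74, against 9.30, 9.81 and 10.50 in control males, with 12 of 13 Rapa males above the control mean. Nrp1 was higher in Rapa males by 0.31 ± 0.09 on probe 1 (limma adjusted p = 0.0204) and 0.28 ± 0.08 on probe 2 (limma adjusted p = 0.0184). In Rapa-1 males alone probe 2 differed by 0.37 ± 0.10, which missed the threshold (limma adjusted p = 0.0699), and in Rapa-2 males by 0.16 ± 0.09 (limma adjusted p = 0.143). Control females were higher than control males by 0.47 ± 0.09 and 0.45 ± 0.08 (limma adjusted p = 2.81e-05 and 1.58e-05).

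The Nrp1 calls of both sexes changed with the arrays and terms in the fit. In all Rapa males each probe lost its call in 6 of 14 alternatives while it stayed higher, among them median scaling (0.22 and 0.19, limma adjusted p = 0.239 and 0.347). In females probe 1 lost its call in 8 of the 37 fits that left out 1 array, with adjusted p up to 0.063. When the share of detected probes, which was lower in Rapa females, entered the fit, the female differences were 0.17 ± 0.13 and 0.15 ± 0.13 (limma adjusted p = 0.433 and 0.499). Other alternatives gave larger female falls, down to -0.69 on probe 1 and -0.74 on probe 2. Of 14 alternatives the female call was kept in 9 on probe 1 and in 11 on probe 2.

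Tek did not pass between Rapa and control females, at -0.02 ± 0.06 (limma adjusted p = 0.826). In Rapa-2 males it ran 8.28, 8.42 and 8.57, against 8.00, 8.17 and 8.42 in control males, and all 6 were above the control mean, by 0.24 ± 0.06 (limma adjusted p = 0.00127). That call was lost with median scaling (0.17, limma adjusted p = 0.201) and when the raw array median entered the fit (0.13, limma adjusted p = 0.594).

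**Figure D3:**
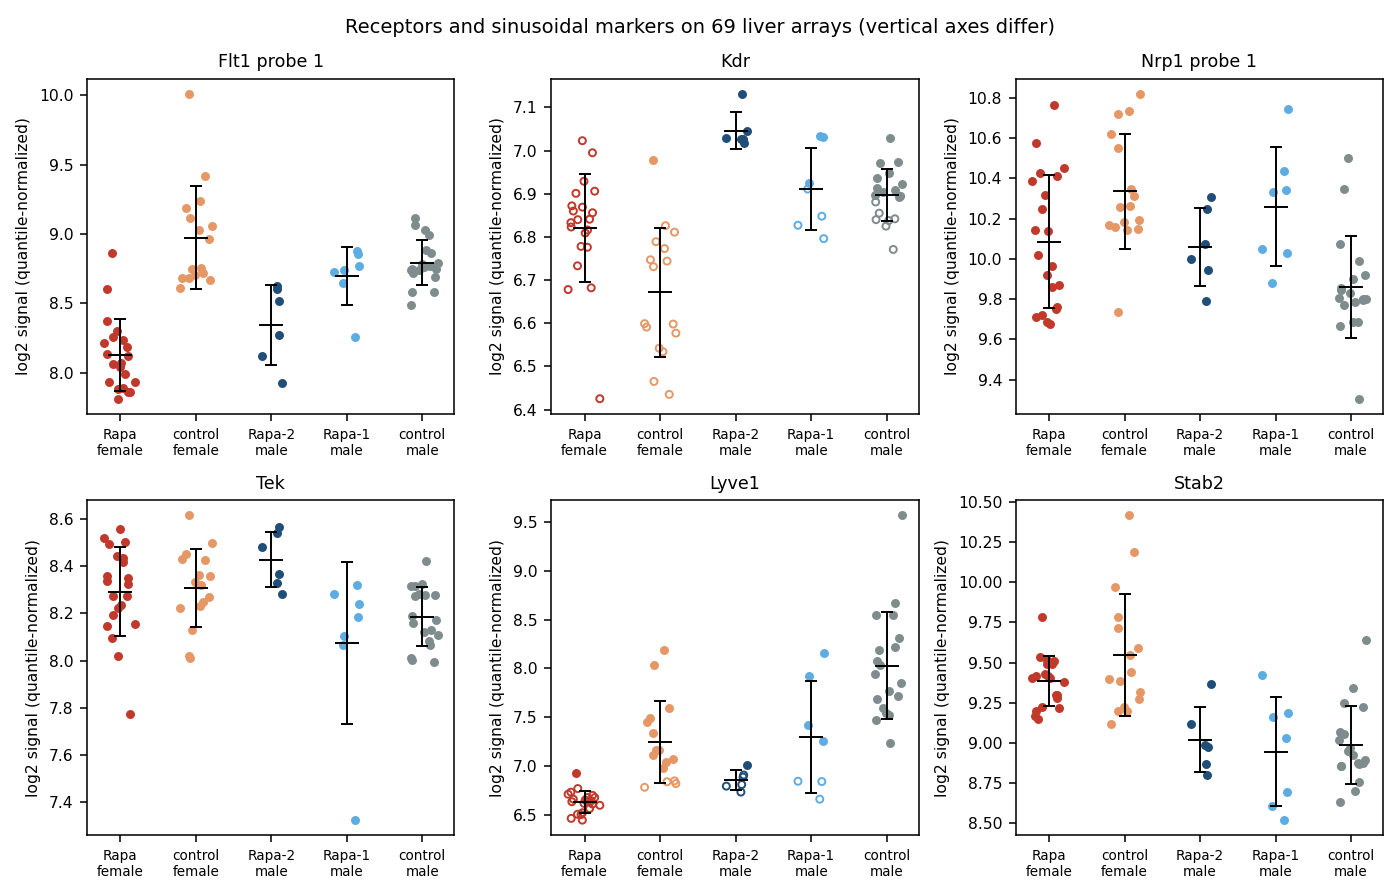
Quantile-normalized log2 signal of Flt1 probe 1, Kdr, Nrp1 probe 1, Tek, Lyve1 and Stab2 by group, 1 point per array (21, 16, 6, 7 and 19 arrays from left to right), with black bars for mean and SD and open points for arrays where the probe was not detected. Flt1 and Lyve1 are low in Rapa females and Rapa-2 males, Kdr is mostly open, and Stab2 is high in both female groups.

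Among the sinusoidal markers, Lyve1 fell with the diet in females and in Rapa-2 males, to near background in both. Its log2 signals ran 6.44, 6.63 and 6.93 in Rapa females, against 6.78, 7.13 and 8.19 in control females, and it was detected on 1 of 21 Rapa females against 12 of 16 control females. The measured signals differed by -0.61 ± 0.09 (limma adjusted p = 7.91e-07), or by -0.26 (limma adjusted p = 0.177) when the share of detected probes entered the fit. Since nearly all Rapa females were not above background, their Lyve1 level is only an upper limit. Among males it ran 6.73, 6.85 and 7.01 (Rapa-2), 6.66, 7.26 and 8.16 (Rapa-1), and 7.24, 7.95 and 9.57 (control). It was detected on 1 of 6 Rapa-2 males, 4 of 7 Rapa-1 males and 19 of 19 control males. The Rapa-2 and control male ranges did not overlap, and the measured signals differed by -1.17 ± 0.22 (limma adjusted p = 8.12e-05), with the Rapa-2 level likewise an upper limit. Rapa-1 males differed from control males by -0.73 ± 0.23, which did not pass (limma adjusted p = 0.157). The difference of -0.44 ± 0.22 between Rapa-2 and Rapa-1 males did not pass either (limma adjusted p = 0.116). All Rapa males together were lower by -0.93 ± 0.18 (limma adjusted p = 0.00181), with 12 of 13 below the control mean. Control females were lower than control males by -0.79 ± 0.16 (limma adjusted p = 0.000111).

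The stabilins did not share this pattern. Stab2 ran 9.15, 9.41 and 9.79 in Rapa females, against 9.12, 9.42 and 10.42 in control females, a difference of -0.16 ± 0.09 (limma adjusted p = 0.118). No diet comparison of Stab2 passed. Control females were higher than control males by 0.56 ± 0.10 (limma adjusted p = 2.09e-05), and all 16 lay above the control male mean. Stab1 differed by 0.11 ± 0.05 in Rapa females (limma adjusted p = 0.0563), and was higher in Rapa-2 males by 0.22 ± 0.07 (limma adjusted p = 0.0123), a call that ended without Rapa-2 male 3 or 4. It was lost in 5 of 14 alternatives, and the Stab1 difference was 0.01 (limma adjusted p = 0.983) when the raw array median entered the fit.

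The junction proteins did not pass in Rapa females either. Pecam1 probe 1, Pecam1 probe 2 and Cdh5 differed there by -0.05 ± 0.07, -0.08 ± 0.05 and 0.00 ± 0.08 (limma adjusted p = 0.538, 0.221 and 0.964). In Rapa-2 males Cdh5 ran 7.08, 7.38 and 7.62, against 6.68, 7.00 and 7.25 in control males, and was higher by 0.34 ± 0.08 (limma adjusted p = 0.000714). Pecam1 probe 1 was higher by 0.31 ± 0.09 (limma adjusted p = 0.00683), while probe 2 differed by 0.08 ± 0.06 (limma adjusted p = 0.303). The probe 1 call was lost in 5 of 14 alternatives, with a lowest value of 0.20. In control females against control males both Pecam1 probes and Cdh5 were higher, by 0.26 ± 0.07, 0.33 ± 0.05 and 0.24 ± 0.06 (limma adjusted p = 0.00251, 2.25e-06 and 0.00167).

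These flat results in females depended on the scaling. Under median scaling, which lowered the median of all tested probes by 0.20, Tek (-0.39), Stab1 (-0.21), Stab2 (-0.60) and Pecam1 probes 1 and 2 (-0.40 and -0.28) passed as lower in Rapa females, as did 45.4% of all tested probes. Set against the shift of all probes, Stab2, Tek and both Pecam1 probes lay below it, Stab1 lay on it, and Cdh5 (-0.17, limma adjusted p = 0.0913) lay just above it. Vegfa probe 1 and Flt1 were lower under both scalings.

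**Figure D4:**
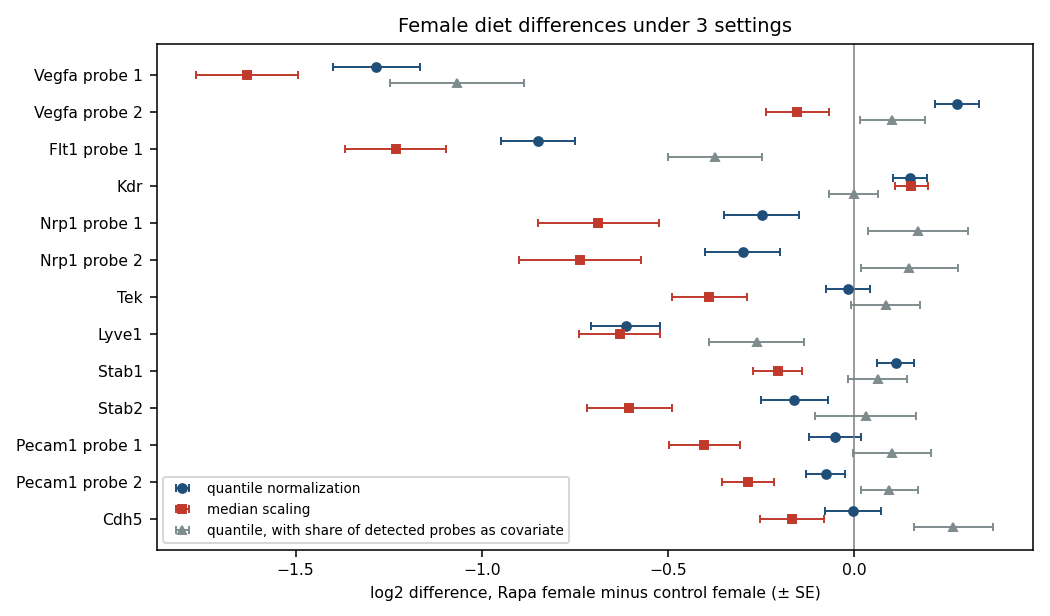
Log2 difference between Rapa and control females (± SE) of the 13 tested member probes under quantile normalization, median scaling, and quantile normalization in a fit that also held the share of detected probes. Median scaling moves each probe but Kdr to the left, Lyve1 only slightly, and the differences of Vegfa probe 1 and Flt1 probe 1 stay below 0 under all 3 settings.

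In Rapa-2 males against control males, 8 of 13 member probes passed, where 36.3% of all tested probes did. Of these, 5 were higher (20.9% of all probes) and 3 were lower (15.4%), with a member median of 0.16 beside 0.09 over all probes. The ranges of 2 probes did not overlap, against 11.6% of all probes. In Rapa-1 males against control males 0 of 13 passed with limma, beside 0.378% of all probes, and the methods' t-test also gave 0 member probes, while 3 member probes had an unadjusted p under 0.05. In all Rapa males 6 of 13 passed, beside 10.6% of all probes, 3 higher (3.06%) and 3 lower (7.52%). Between Rapa-2 and Rapa-1 males 3 of 13 passed, beside 34% of all probes, with 1 probe of the 13 not overlapping, beside 17.4% of all.

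Between control females and control males 10 of 13 member probes passed, beside 35.6% of all tested probes. Of these, 7 were higher in females (19.5% of all probes) and 3 were lower (16.1%), namely Vegfa probe 1, Kdr and Lyve1. The member median was 0.24, beside 0.05 over all probes, and 1 probe did not overlap, beside 5.51% of all.

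**Figure D5:**
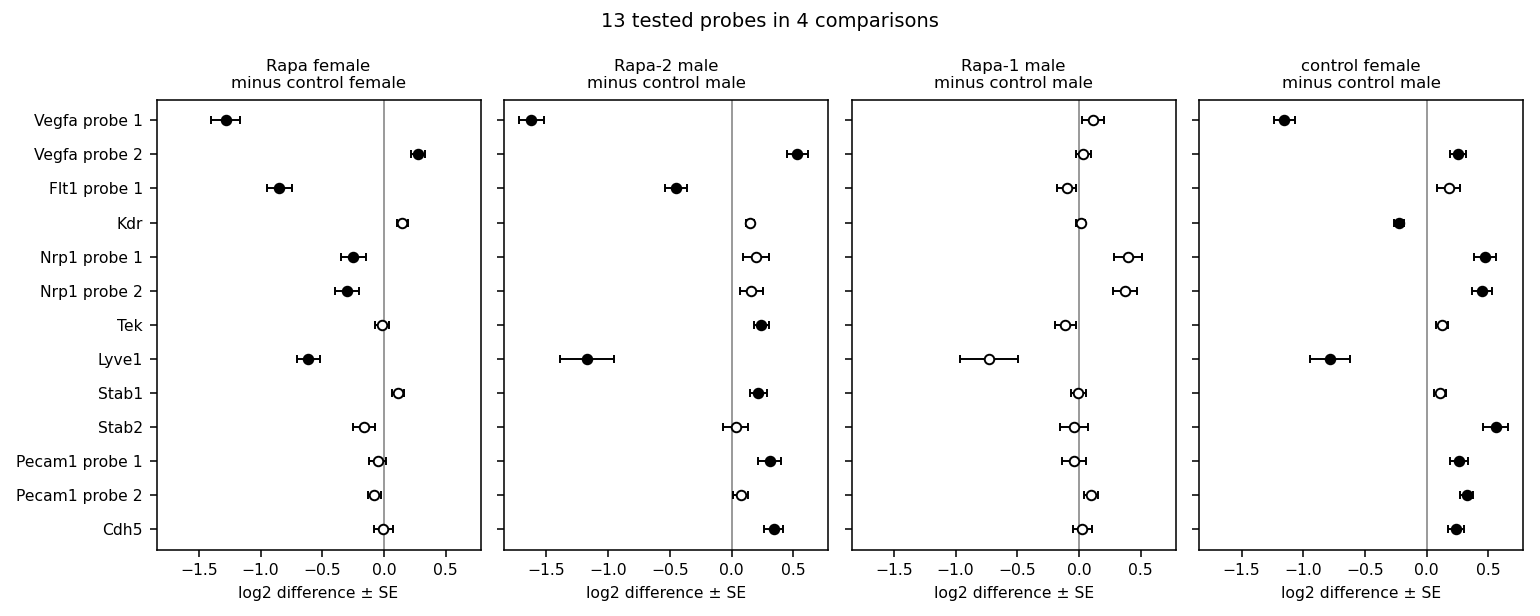
Log2 difference (± SE) of the 13 tested member probes in Rapa females against control females, and in Rapa-2 males, Rapa-1 males and control females against the same control males. Filled points passed (limma adjusted p under 0.05 and over 15% change); no point is filled for Rapa-1 males.

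The diet difference itself was compared between the sexes in 1 model of all 69 arrays, as the female minus the male difference. Of the 13 member probes 3 passed, beside 20.4% of all tested probes, and all 3 were lower (9.27% of all). These were Flt1 probe 1 at -0.59 ± 0.13 (limma adjusted p = 0.0015), Nrp1 probe 1 at -0.56 ± 0.14 (limma adjusted p = 0.00345) and Nrp1 probe 2 at -0.57 ± 0.13 (limma adjusted p = 0.00173). Vegfa probe 1 (-0.59 ± 0.24) missed the threshold (limma adjusted p = 0.062). Here a probe passed by its adjusted p alone. All 3 calls were lost when the share of detected probes entered the fit (-0.39, -0.32 and -0.33, limma adjusted p = 0.0691, 0.15 and 0.101), where 3.95% of all probes passed, and the Flt1 call also without the Rapa-1 males (-0.40, limma adjusted p = 0.0576).

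Within a group, Vegfa probe 1 was set against the brightest tested probe of each of the 9 other genes, giving 45 relations in 5 groups. After Benjamini-Hochberg adjustment over the 45, 0 were below 0.05 by permutation, exact in the groups of 6 and 7. Over all 45, 6 had an unadjusted permutation p under 0.05. With median scaling 4 passed. The strongest was Stab1 in Rapa-2 males (n = 6), with r = -0.98 (exact permutation p = 0.00556, adjusted 0.096) and rho = -0.83 (exact permutation p = 0.0583, adjusted 0.524), r = -0.83 without the 2 arrays farthest from the Vegfa median, and r = -0.57 with median scaling. Flt1 in Rapa females had r = 0.60 (permutation p = 0.0064, adjusted 0.096) and rho = 0.32 (permutation p = 0.155, adjusted 0.681). That relation rested on 2 arrays, without which r was -0.05.

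Other VEGF ligands were measured too, and no difference between ligands was tested. Of 4 tested genes among ligands and co-receptors, Vegfb, a ligand of Flt1, was higher in Rapa females by 0.58 ± 0.09 (limma adjusted p = 2.44e-06) and in Rapa-2 males by 0.52 ± 0.12 (limma adjusted p = 0.00061). Vegfc, a ligand of the lymphatic receptor VEGFR-3, was lower in Rapa females by -0.42 ± 0.06 (limma adjusted p = 1.7e-07). The other 2 passed in neither comparison. Among 4 tested genes of the angiopoietin and Tie receptor group, Ptprb, the endothelial phosphatase that acts on Tie2, was the 1 that passed with the diet. It was lower by -1.21 ± 0.10 in Rapa females and by -1.83 ± 0.07 in Rapa-2 males (limma adjusted p = 6.75e-12 and 9.35e-18), while Tek itself passed as lower in neither, except in Rapa females under median scaling (-0.39).

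The hypoxia pathway is a known inducer of Vegfa. Of 9 tested factors and regulators 0 were higher and 2 lower in Rapa females, where 20% of all tested probes were higher and 18.5% lower: Hif1a, the oxygen-regulated subunit of HIF-1 (-0.31 ± 0.06), and Egln3, a prolyl hydroxylase of the pathway (-0.50 ± 0.09). At an unadjusted p under 0.05 with limma and no fold minimum, 5 were higher and 2 lower. The list median was 0.10, beside 0.03 over all probes. In Rapa-2 males 3 were higher, among them Epas1 (0.32 ± 0.09), and 3 lower, among them Egln3 (-1.09 ± 0.11) and Vhl (-0.35 ± 0.04), beside 20.9% and 15.4% of all probes. Of 8 tested hypoxia-induced genes, which hypoxia is known to raise, 0 were higher and 3 lower in Rapa females, including the glucose transporter Slc2a1 (-0.32 ± 0.12), or 1 higher and 3 lower at an unadjusted p under 0.05 with limma. The median of that list was -0.20, beside 0.03 over all probes. In Rapa-2 males 1 was higher, Ndrg1 (0.34 ± 0.10), and 0 lower with limma, at either p, and the median was 0.06, beside 0.09.

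Downstream of the receptors, 23 signalling genes were tested. In Rapa females 3 were higher and 4 lower (20% and 18.5% of all tested probes), with the adaptor Nck1 lowest in adjusted p (-0.82 ± 0.09). In Rapa-2 males 10 were higher and 3 lower (20.9% and 15.4% of all), with Nck1 at -0.77 ± 0.07, the GTPase Rac1 at 0.51 ± 0.08 and caveolin-1 (Cav1) at -0.54 ± 0.17, and the list median was 0.19, beside 0.09 over all probes. In control females against control males 12 were higher and 2 lower (19.5% and 16.1% of all), with Cav1 at -0.91 ± 0.11.

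Further endothelial markers were counted in the same way, beside the same shares of all probes (20% higher and 18.5% lower in Rapa females, 20.9% and 15.4% in Rapa-2 males). Of 10 tested sinusoidal markers besides the members, 6 were lower in Rapa females, among them Oit3 (-0.57 ± 0.08), coagulation factor F8 (-0.38 ± 0.06) and the Fc receptor Fcgr2b (-0.45 ± 0.09), and 2 were higher, Ehd3 (0.46 ± 0.10) and Dnase1l3 (0.39 ± 0.09). The list median was -0.25. In Rapa-2 males 1 was higher and 0 lower with limma, or 2 higher and 1 lower at an unadjusted p under 0.05, and the median was 0.10. Of 18 other endothelial markers 5 were lower and 1 higher in Rapa females, with Notch1 at -0.52 ± 0.05 and the water channel Aqp1 at -0.73 ± 0.10. Of the endothelial secreted factors, 2 of 3 were lower in Rapa females and in Rapa-2 males, Wnt2 (-0.25 ± 0.04 and -0.77 ± 0.08) and Dkk3 (-0.80 ± 0.07 and -0.66 ± 0.08). In Rapa-1 males against control males 1 of these 3 was also lower, beside 0.249% of all tested probes.

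Markers of some other cells moved too, where 18.5% of all tested probes were lower in Rapa females and 15.4% in Rapa-2 males. In Rapa females the 4 neutrophil markers were all lower, with a median of -1.98. Their summed unlogged signal after quantile normalization ran 443 to 22750 in Rapa females against 640 to 50410 in control females. Of 6 hepatocyte markers 3 were lower in Rapa females and 4 in Rapa-2 males. Their summed signals, likewise after quantile normalization, ran 66730 to 89750 in Rapa females and 74500 to 96800 in control females. The summed signal of the 10 sinusoidal markers, on the same scale, ran 6877 to 11330 in Rapa females and 9870 to 14030 in control females. In Rapa females 1 of 5 Kupffer cell, 1 of 5 stellate cell and 2 of 4 red cell markers passed as lower. In Rapa-2 males 1 of 5, 1 of 5 and 1 of 4 did, with 1 of 2 cholangiocyte markers and 0 of 4 neutrophil markers. The cholangiocyte markers in Rapa females, and the lymphocyte markers in both comparisons, did not pass. The part of these cells in the member differences was not tested.

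One Rapa-1 male stood apart on the endothelial members. Rapa-1 male 3 was the lowest of its 7 arrays on 7 of the 11 member probes other than Vegfa, with Tek at 7.33, Pecam1 probe 1 at 7.16 and Flt1 probe 1 at 8.26. Its Vegfa probe 1 signal of 10.22 was the median of the group. Its 10 sinusoidal markers averaged 7.97, against 8.76 to 9.16 on the other 6 arrays, while its raw array median of 121 lay within the range of the group and its 41.0% of detected probes was the lowest of the 7, next to 41.1%. Without it 5 rather than 3 member probes passed between Rapa-2 and Rapa-1 males.

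By deviations from the group means over 69 arrays and 8728 other genes, the genes most like Vegfa probe 1 were Dazap2, Mtus1, Ppp1r2, Ecpas and Ergic2 (r = 0.71 to 0.73, rho = 0.61 to 0.74). Those most like Vegfa probe 2 were Tprkb, Ftcd, Hoga1, Atl3 and Aldh5a1 (r = 0.61 to 0.65, rho = 0.51 to 0.54), with no gene shared. Flt1 was most like Dstn, Prelid3b, Bnip3l, Tank and Skil (r = 0.65 to 0.66), and Kdr was most like Olfr724, Chst8, Ubox5, Gnao1 and Ccdc65 (r = 0.69 to 0.72). Kdr was detected on 21 of 69 arrays, so its order of likeness rests mostly on background signal.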

How the data were processed

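Per the methods and labels, the authors extracted total RNA from liver, labelled it as biotinylated cRNA, hybridized it to Illumina MouseRef-8 v2 arrays and read it with the vendor's software. The deposited non-normalized values are each probe's mean bead intensity, neither logged nor scaled. The deposited detection score equals 1 minus the detection p. The deposited processed values are log2 signals, quantile-normalized by the authors, and the values recomputed here correlated with them at r = 0.99992 or more on each array.

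Log2 signals were quantile-normalized over all 25697 probes and tested with limma 3.58.1 in R 4.3.3, two-sided, using the arrays of the groups compared, with Benjamini-Hochberg adjustment over 12442 probes. The interaction of diet and sex used all 69 arrays. Correlations used 100000 permutations, or exact enumeration in the groups of 6 and 7. Probes were named through the platform annotation, with symbols updated by RefSeq for 23962 probes, and probes of one gene were numbered by brightness. The fits were tested on simulated data. One array was run per mouse, and the number of arrays and, for dim probes, the background limit the precision.

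All member probes are reported. From each of 15 lists of related genes and cell markers, up to 3 passing genes per direction and comparison with the smallest adjusted p could be named, and for the Vegfa probes, Flt1 and Kdr the 5 genes with the highest r. The members and lists were chosen with earlier results of these data known. Values of single arrays were picked after they had been seen. Alternatives were normexp background correction with an offset of 16, no or a stricter detection filter, the authors' processed values, median scaling, the methods' t-test, 1 model of all arrays, other fold minimums, the replicate number as a block, 2 covariates, single runs of control animal numbers and leaving out each array.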

Additional observations from a re-analysis of the deposited data

Results flagged for a closer look

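Some values of single arrays lay far from the rest of their group by Dixon's test at 95%, run on 13 probes in the 2 groups of 4 to 10 arrays, 26 tests in all, of which chance would flag about 1 in 20. Rapa-2 male 4 was low on Vegfa probe 2 (8.36, next 8.91, gap over range 0.738). Rapa-2 male 6 was high on Kdr (7.13, next 7.05, 0.742), a probe near background. Rapa-1 male 3 was low on Flt1 probe 1 (8.26, next 8.65, 0.627), Tek (7.33, next 8.07, 0.744) and Pecam1 probe 1 (7.16, next 7.75, 0.593).

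The diet difference differed between the sexes for Flt1 probe 1 (-0.587), Nrp1 probe 1 (-0.555) and Nrp1 probe 2 (-0.575), each as the female minus the male log2 difference with limma adjusted p under 0.05. For Nrp1 the diet differences had opposite signs, while for Flt1 both were negative.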

How the results depend on the processing

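Of 36 member values that passed, 482 values under alternatives were computed; 478 kept the direction and 389 also the call, 89 no longer passed and 4 turned round. With median scaling 10 member probes passed in Rapa females against control females (6 as reported), 3 in all Rapa males, 5 in Rapa-2 males against control males and 11 in the interaction of diet and sex, beside 46%, 10.5%, 24.6% and 34.2% of all probes. In the same setting the Vegfa probes passed in opposite directions in 3 comparisons and 4 relations of Vegfa with other members passed. Median scaling turned round Vegfa probe 2 in females (-0.153) and in the interaction (-0.338), and Stab1 in females (-0.206) and in the interaction (-0.24). Calls among all tested probes in females were then 1.33% higher ones, against 51.9% with quantile normalization.

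When the share of detected probes entered the fit, 2 member probes passed in Rapa females, 7 between Rapa-2 and Rapa-1 males and 1 in the interaction (13.2%, 39.2% and 3.95% of all probes), the Vegfa probes passed in opposite directions in 3 comparisons, and Nrp1 probes 1 and 2 turned round in females (0.171 and 0.147). When the raw array median entered the fit, 0 passed in all Rapa males, 1 in Rapa-2 males against control males and 0 between Rapa-2 and Rapa-1 males with limma, where calls among all probes fell alike to 0.161%, 12.1% and 2.07%. The Vegfa probes then passed in opposite directions in 1 comparison and Vegfa probe 1 turned round in all Rapa males (0.081). Raw medians ran 84.0 to 96.8 in Rapa-2 males, against 116.8 to 130.8 in Rapa-1 males and 113.8 to 146.0 in control males. Rapa-2 males overlapped neither, so brightness and group cannot be told apart where they are compared with either.

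With a minimum of 1.5-fold 3 probes passed in Rapa females, 2 in all Rapa males, 2 in Rapa-2 males against control males, 1 between Rapa-2 and Rapa-1 males, 2 between control females and control males (6%, 2.04%, 7.77%, 8.4% and 8.13% of all probes), and the Vegfa probes passed in opposite directions in 0 comparisons with limma. Control arrays of the lower or the higher run of animal numbers alone each gave 1 probe in all Rapa males (1.7% and 1.45% of all). One model of all 69 arrays gave 6 between Rapa-2 and Rapa-1 males (32.6%). Without Rapa-1 males or without Rapa-2 males 5 passed in the interaction (19.6% and 36.4%). Leaving out 1 array gave 5 to 6 probes in Rapa females, 3 to 7 in all Rapa males, 0 to 1 in Rapa-1 males, 7 to 9 in Rapa-2 males against control males, 2 to 5 between Rapa-2 and Rapa-1 males and 9 to 10 between control females and control males.

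The title numbers served as a replicate block although nothing says they pair mice, and deviations of same-numbered arrays had a median r of -0.107 in females, -0.066 between Rapa-1 and control males, 0.04 between Rapa-2 and control males, 0.19 between Rapa-2 and Rapa-1 males (5 of 6 pairs over 0.1) and 0.161 between control females and control males (10 of 16). The replicate block gave 6 member probes in Rapa females (37.4% of all probes) and 1 in all Rapa males (0.635%). It gave 4 in Rapa-2 males against control males (29.5%) and 0 in Rapa-1 males (0%). Between Rapa-2 and Rapa-1 males 4 passed (36.6%), and 10 between control females and control males (36.2%). Kdr, Lyve1 and Cdh5 lay near background, which limits what their differences can show.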
